A study of Mus musculus with 6 samples.

Results

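Interferon-stimulated genes were followed across 3 doses of SHP099, an allosteric inhibitor of the tyrosine phosphatase SHP-2, in mouse glioma cells. The list holds 42 genes chosen by name, and all 42 were found, each with 1 row, among the 53346 gene symbols of the files. They were read in 3 classes: 32 effectors known mainly as targets of type I interferon, 6 GTPases known mainly as targets of interferon-gamma, and 4 regulators of the STAT and IRF families.

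The cells of all groups are, per the labels, tumour astrocytes without Ink4a/Arf that carry PDGFRa and PDGF-A, and they received 0, 5 or 10 µM SHP099. The labels give neither the duration of treatment nor the number of clones or the promoter behind the introduced genes. Each dose was 1 library of polyadenylated RNA sequenced in lanes 6 and 7, so n = 1 per dose and the lanes show the error of sequencing only. Values are the authors' FPKM, by definition fragments scaled by transcript length and by mapped fragments. Whether the files were also rescaled is not given, so the depths that follow are those implied by the values. Steps between low values gave depths of 46880000 and 47120000 fragments for the 0 µM library, 37900000 and 38580000 for the 5 µM one, and 30820000 for both lanes of the 10 µM one. A transcript of 2 kb at 1 FPKM then has a counting error of 10.3% to 12.7% per lane, and 3 fragments of it correspond to 0.0318 to 0.0487 FPKM. Of 10 astrocyte markers, 4 reached 1 FPKM: Slc1a3 (13.8, 14.0 and 13.8 FPKM at 0, 5 and 10 µM), Gja1 (31.2, 28.7 and 24.1 FPKM), Sox9 (6.51, 5.63 and 5.20 FPKM) and Glul (24.7, 14.5 and 15.5 FPKM). By the size rule given further on, Glul was called lower at 10 µM (−0.64) and at 5 µM (−0.73), both against 0 µM, and the other 3 were not called. Over all genes compared, 19.1% were lower at 10 µM and 16.8% at 5 µM. Aldh1l1, Slc1a2, S100b and Aldoc averaged under 0.3 FPKM at every dose, Gfap was at 0.031, 0.022 and 0 FPKM, and Aqp4 was listed at 0 in every file.

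Interferons act on neighbouring cells through receptors that carry JAK kinases. Type I interferon leads to a complex of STAT proteins with IRF9 that binds the interferon-stimulated response element (ISRE), and interferon-gamma leads to STAT dimers that bind the gamma-activated site (GAS). The genes switched on this way include sensors of viral RNA, effectors that block steps of viral growth, GTPases that attack the vacuoles of intracellular pathogens, and the regulators themselves, which feed back on the pathway. Many of them also have a basal level without added interferon.

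The promoters show where such elements lie in genes of this list. In RefSeq's promoter table (build GRCm38.p6, 250 bases before to 50 after a start site), 31 of the 42 members were matched by symbol. Those not matched were Oas2, Mx1, Mx2, Usp18, Dhx58, Zbp1, Parp9, Parp14, Ifi27, Rtp4 and Iigp1. The ISRE core was searched as GAAANNGAAA on both strands, counting overlapping matches, and the GAS core as TTCNNNGAA, which reads alike on both strands. The ISRE core was found for 16 of the 31 matched members (51.6%), against 3.99% of 27025 genes and 3.44% of 32851 promoters in the table. All 5 matched GTPases held it, and so did 10 of 22 matched effectors and 1 of 4 regulators, Stat2. The GAS core was found for 10 of the 31 (32.3%), against 9.55% of genes and 8.30% of promoters. A match is a description of the letters and does not show binding.

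The 8 promoters below run from 160 bases before the start site to the base before it (for Ddx58 to 20 bases after it), 5′ to 3′ on the strand of the gene, with ISRE cores in capitals. The first 5 belong to the members with an ISRE core that were called higher at both 5 and 10 µM by the size rule given further on, in the order of their change at 10 µM. The last 3 belong to well-known targets of type I interferon that were not higher, and were chosen after their values were seen.
Bst2, chr8:71537473-71537632, minus strand: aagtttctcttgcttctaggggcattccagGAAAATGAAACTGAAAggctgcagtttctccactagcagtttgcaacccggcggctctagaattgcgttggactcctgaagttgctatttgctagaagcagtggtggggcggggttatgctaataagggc
Igtp, chr11:58199396-58199555, plus strand: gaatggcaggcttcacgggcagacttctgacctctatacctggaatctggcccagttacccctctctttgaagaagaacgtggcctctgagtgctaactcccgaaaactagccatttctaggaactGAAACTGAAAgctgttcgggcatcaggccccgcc
Ddx58, chr4:40239806-40239985, minus strand: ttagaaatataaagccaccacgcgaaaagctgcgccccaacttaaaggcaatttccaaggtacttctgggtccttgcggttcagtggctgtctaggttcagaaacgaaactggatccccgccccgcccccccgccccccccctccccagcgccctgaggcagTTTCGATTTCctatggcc
Ifit3, chr19:34583369-34583528, plus strand: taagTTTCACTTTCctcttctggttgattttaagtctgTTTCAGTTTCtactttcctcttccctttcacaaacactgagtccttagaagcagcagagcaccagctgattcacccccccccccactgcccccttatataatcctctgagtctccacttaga
Gbp2, chr3:142620503-142620662, plus strand: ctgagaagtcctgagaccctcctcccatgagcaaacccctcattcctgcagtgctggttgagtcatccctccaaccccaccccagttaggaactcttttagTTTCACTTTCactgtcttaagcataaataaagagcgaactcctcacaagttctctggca
Ifit1, chr19:34640729-34640888, plus strand: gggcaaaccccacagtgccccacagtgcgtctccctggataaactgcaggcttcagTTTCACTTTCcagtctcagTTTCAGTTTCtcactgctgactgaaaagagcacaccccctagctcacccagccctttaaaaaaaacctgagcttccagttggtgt
Rsad2, chr12:26456453-26456612, minus strand: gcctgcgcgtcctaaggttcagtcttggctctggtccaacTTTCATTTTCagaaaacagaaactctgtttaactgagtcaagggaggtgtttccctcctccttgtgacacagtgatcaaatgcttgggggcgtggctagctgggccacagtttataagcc
Isg15, chr4:156200819-156200978, minus strand: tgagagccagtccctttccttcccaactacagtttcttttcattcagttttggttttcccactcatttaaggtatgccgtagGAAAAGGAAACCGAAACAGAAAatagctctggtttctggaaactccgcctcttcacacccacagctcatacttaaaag

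Overlapping cores make up the run of capitals in Bst2 (first bases at positions −130 and −124 from the start site) and in Isg15 (−78, −72 and −66). Ifit3 (−156 and −122) and Ifit1 (−104 and −85) each held separate cores. Igtp had its core at −34 with a GAS core at −45, and Bst2 had a GAS core at −136. By the call at 10 µM, the ISRE core was found for 5 of 8 matched members that were higher, 2 of 3 that were lower, 6 of 16 compared but not called and 3 of 4 that were below the level compared.

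**Figure D1:**
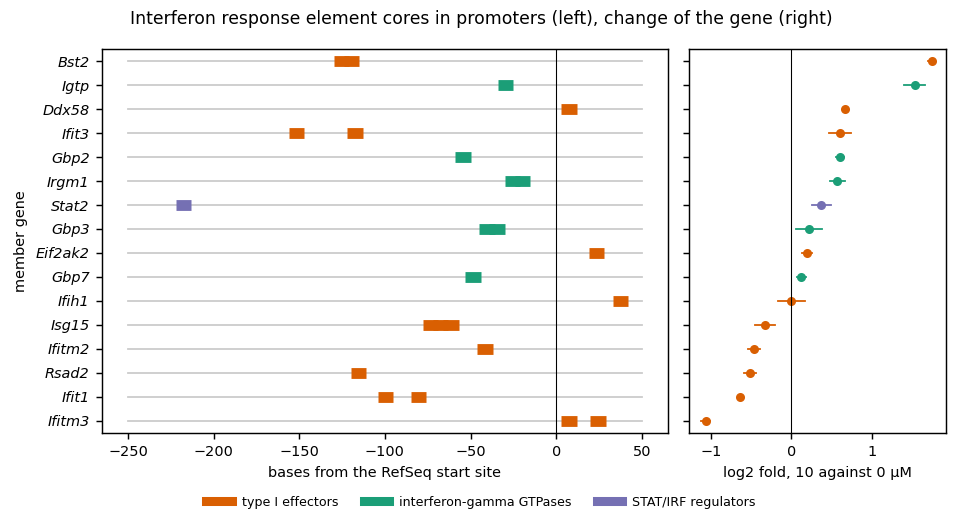
Left, positions of ISRE cores (blocks of the length of the core) from 250 bases before to 50 after the RefSeq start site, in the 16 members that held one; right, log2 fold of FPKM + 1 of the same gene for 10 against 0 µM, with lines for the range over lane pairs. Genes are ordered by the fold, from Bst2 (1.74) to Ifitm3 (−1.06), and colours mark the 3 classes.

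The list spans a wide range of levels, and a few genes hold most of its RNA. At 0 µM Ifitm2 averaged 660 FPKM, Ifitm3 559 FPKM and Ifitm1 141.9 FPKM, followed by Ifi27 (59.7 FPKM), Irf1 (51.0 FPKM) and Bst2 (42.8 FPKM). The Ifitm genes, which encode small membrane proteins that hinder fusion of viruses with the cell, made up 80.8% of the summed FPKM of the 42 members at 0 µM, 66.5% at 5 µM and 60.1% at 10 µM. Their sum was 1361, 1112 and 803 FPKM at these doses, while that of the other 39 members was 324, 560 and 533 FPKM. At the other end, 10 members stayed below 1 FPKM at every dose: Oas2, Mx1, Mx2, Rsad2, Cmpk2, Ifih1, Dhx58, Parp14, Iigp1 and Gbp7. Oas2 averaged 0.02 to 0.03 FPKM and was listed at 0 in 1 file, and Iigp1 averaged 0.02 to 0.11 FPKM.

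**Figure D2:**
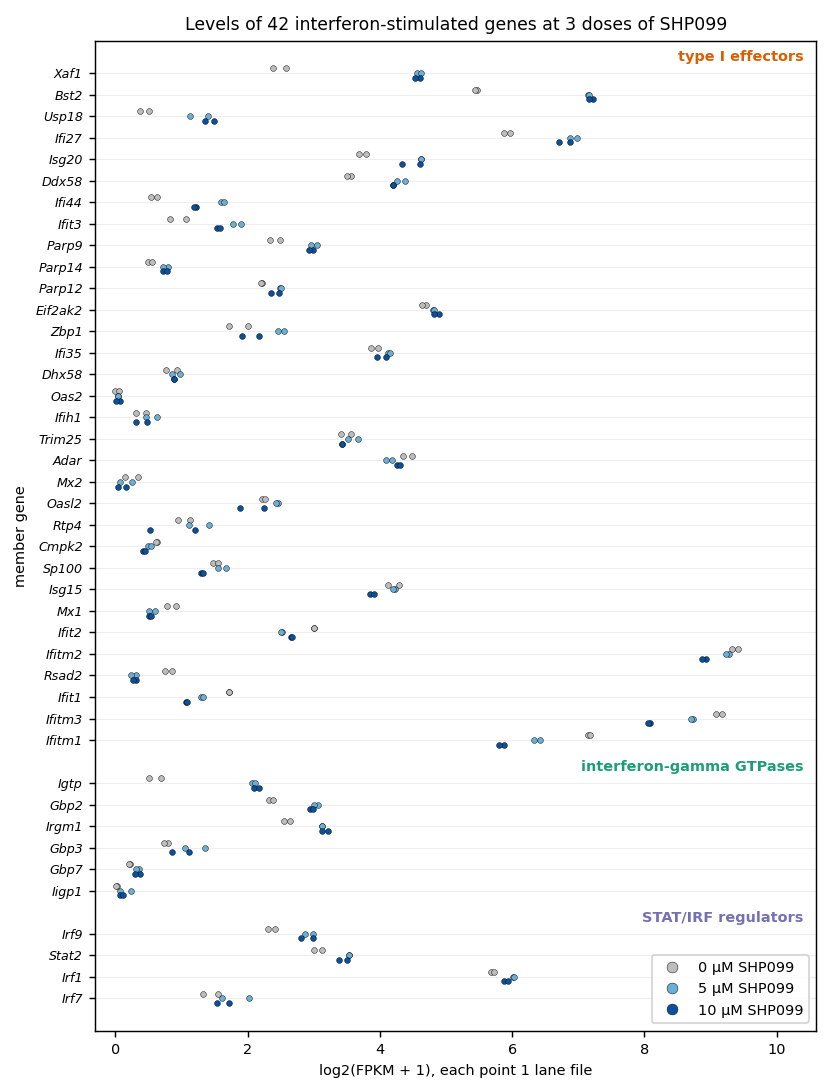
Level of each member as log2(FPKM + 1) in the 6 lane files (1 point per lane; grey, 0 µM; light blue, 5 µM; dark blue, 10 µM), in 3 classes and ordered by the change at 10 µM. The points of a library lie close together for most genes, and the levels run from Oas2 and Iigp1 near 0 to Ifitm2 and Ifitm3 at the right.

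To compare doses, the means over lanes were taken on log2(FPKM + 1), a scale that understates the change of low genes, and changes are given as log2 folds with the range over the 4 pairs of lanes. A gene was called higher or lower when its mean differed by at least 1.5-fold (0.585 on the log2 scale) and all 4 pairs had the same sign. Genes needed a mean of at least 1 FPKM at 1 or more doses, which 12567 genes and 32 members met. Since each dose is a single library, doses were not tested against each other. The lanes of a library differed by a median of 0.09 (0 µM), 0.07 (5 µM) and 0.06 (10 µM) on the log2 scale over the members, and by at least 1.5-fold for 1 member, Rtp4 at 10 µM.

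Cells at 10 µM were set against those at 0 µM to ask what differs with SHP-2 inhibited. Members moved in both directions. On the log2(FPKM + 1) scale, Xaf1, Bst2 and Igtp had the largest increases and Ifitm1 and Ifitm3 the largest decreases. Of the 32 members compared, 10 were higher (31.2%) and 3 lower (9.38%), beside 15.7% higher and 19.1% lower over all genes compared. Values are per library and not per cell, so more RNA per cell and more cells with that RNA cannot be told apart. Of the 27 members with at least 1 FPKM at 0 µM, 6 were higher (22.2%) and 3 lower, beside 13.4% and 20.3% of such genes; at 5 µM 8 were higher (29.6%) and 1 lower, beside 11.9% and 17.8%. The other 5, Ifit3, Usp18, Ifi44, Igtp and Gbp3, passed only through their levels at 5 or 10 µM, so that their calls are partly set by that filter. Over all 42 members the median log2 fold was 0.15, beside −0.03 over the genes compared.

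At 5 against 0 µM, 12 members were higher (37.5%) and 1 lower (3.12%), beside 14.1% and 16.8% of the genes compared. The members higher were Xaf1, Bst2, Igtp, Ifi44, Ifi27, Ifit3, Isg20, Usp18, Ddx58, Gbp2, Zbp1 and Parp9, and Ifitm1 was lower. Their median over all 42 was 0.22, beside −0.03. Both comparisons use the same 0 µM library, so they are not independent. Between 10 and 5 µM none was higher, by the size rule or by limma over lanes, and only Ifitm3 was lower (3.12% of the members compared), where 0.414% of all genes compared were higher and 1.35% lower.

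How files are scaled bears on these counts. With each file scaled to the same FPKM sum, the median log2 fold of all genes at 10 against 0 µM moved by 0.19, and calls over all genes changed to 2984 higher and 1606 lower, against 1978 and 2396 as deposited. Under that scaling Parp9 (0.73), Irgm1 (0.77) and Irf9 (0.73) were called higher as well and Ifit1 (−0.52) was no longer called lower. At 5 against 0 µM the same scaling, without the small nucleolar RNA gene Snora62 that distorts 1 file, moved the median by 0.16 and gave 2553 genes higher and 1389 lower, against 1771 and 2107 as deposited, and Irgm1, Stat2 and Irf9 were called as well. With Snora62 kept, it gave 1231 genes higher and 3041 lower at 5 against 0 µM. Of the members, 9 were then higher, with Gbp2 (0.51), Parp9 (0.42) and Zbp1 (0.50) no longer called, and Ifit2 and Ifitm3 were lower as well as Ifitm1. At 10 against 5 µM it gave 680 genes higher and 48 lower at 10 against 5 µM, against 52 and 170 as deposited.

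**Figure D3:**
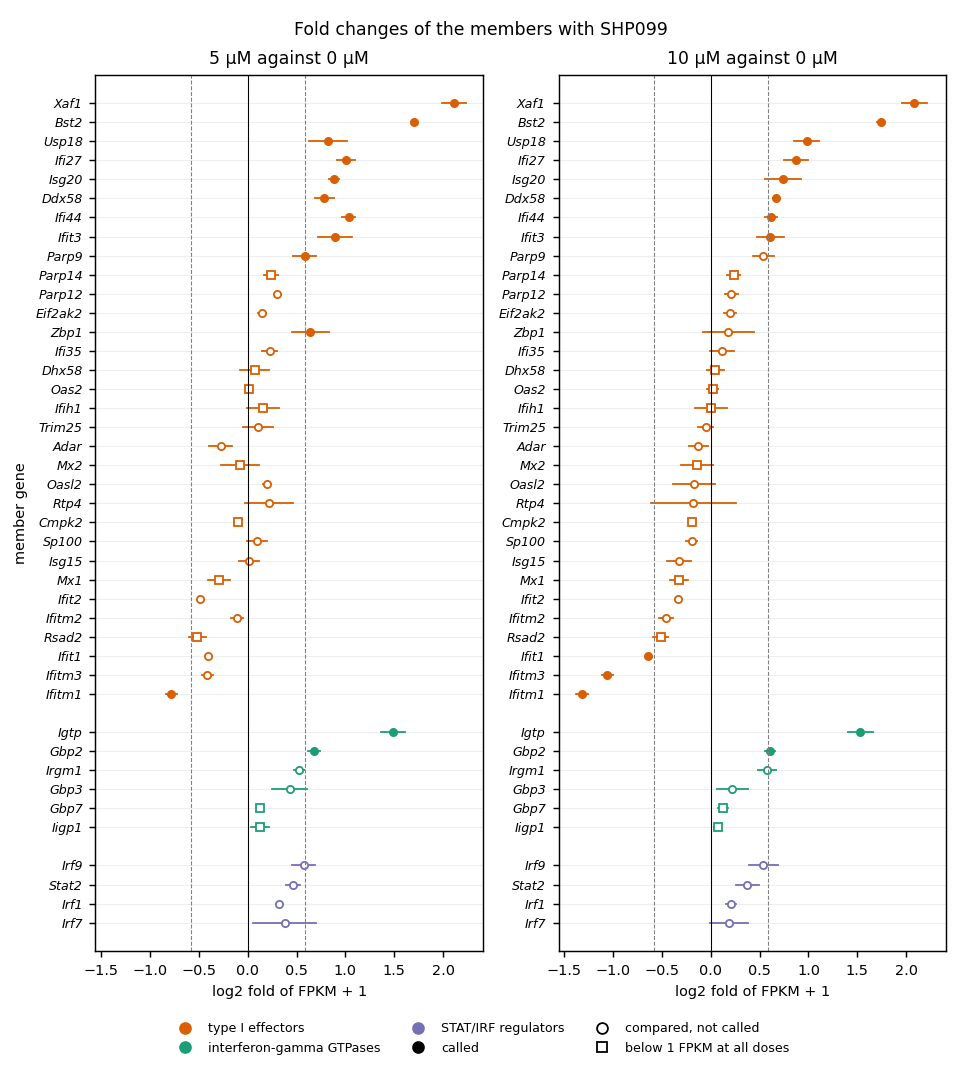
Log2 fold of FPKM + 1 for each of the 42 members at 5 against 0 µM (left) and 10 against 0 µM (right). Points are differences of lane means, lines the range over the 4 lane pairs and dashed lines the 1.5-fold rule; filled points were called, open circles were compared and not called, and squares were below 1 FPKM at all doses. Xaf1, Bst2 and Igtp lie farthest right in both panels and Ifitm1 farthest left, and the GTPases and regulators all lie right of 0.

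**Figure D4:**
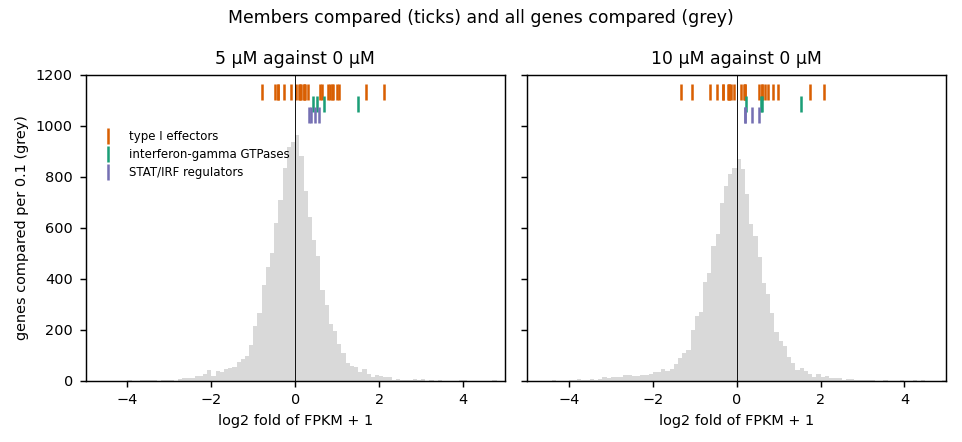
Log2 folds of the 32 members compared (ticks, coloured by class) above the histogram of all 12567 genes compared (grey, genes per bin of 0.1), for 5 against 0 µM (left) and 10 against 0 µM (right). The regulators and GTPases lie right of 0, while the effectors spread to both sides, from −1.32 for Ifitm1 to 2.08 for Xaf1 at 10 µM.

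Among the effectors, the largest increase was that of Xaf1, a zinc finger protein that counters the apoptosis inhibitor XIAP. Xaf1 was at 4.23 and 4.96 FPKM in the lanes at 0 µM, 22.6 and 23.6 FPKM at 5 µM and 23.3 and 22.1 FPKM at 10 µM. All lanes with SHP099 lay above both lanes without it, and the 5 and 10 µM lanes overlapped. Its log2 fold was 2.08 (1.96 to 2.21) at 10 against 0 µM and 2.11 (1.99 to 2.23) at 5 against 0 µM.

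Bst2 encodes tetherin, which holds budding virus particles at the cell surface. Bst2 was at 43.2 and 42.3 FPKM at 0 µM, 140.4 and 141.6 FPKM at 5 µM and 147.8 and 142.7 FPKM at 10 µM. Its log2 fold was 1.74 (1.70 to 1.78) at 10 against 0 µM and 1.70 (1.68 to 1.72) at 5 against 0 µM. At 10 against 5 µM the difference was 0.04 (0.01 to 0.07), a gap smaller than any between these doses and 0 µM. Ifi27, a small protein of mitochondrial and nuclear membranes, was at 61.5 and 57.9 FPKM at 0 µM, 124.9 and 116.7 FPKM at 5 µM and 116.2 and 103.8 FPKM at 10 µM. It rose by 0.87 (0.74 to 0.99) at 10 µM and 1.00 (0.91 to 1.10) at 5 µM, both against 0 µM.

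Usp18 and Isg15 belong to 1 system, in which ISG15 is a ubiquitin-like tag and USP18 the protease that removes it and also dampens the type I receptor. They did not move together. Usp18 was at 0.30 and 0.42 FPKM at 0 µM, 1.64 and 1.197 FPKM at 5 µM and 1.81 and 1.56 FPKM at 10 µM, a rise of 0.98 (0.85 to 1.11) at 10 against 0 µM. Isg15 was at 16.4 and 18.6 FPKM at 0 µM, 17.8 and 17.4 FPKM at 5 µM and 13.4 and 14.1 FPKM at 10 µM. Its log2 fold of −0.32 (−0.45 to −0.20) at 10 against 0 µM was not called, though the lanes at 10 µM lay below all others.

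Of 16 antiviral effectors 11 were compared, of which 3 rose and 3 fell at 10 µM (27.3% each), beside 15.7% and 19.1% of all genes. Isg20, an exonuclease of single-stranded RNA, was at 12.8 and 11.8 FPKM at 0 µM, 23.5 FPKM in both lanes at 5 µM and 19.3 and 23.4 FPKM at 10 µM, with log2 folds of 0.88 (0.83 to 0.93) at 5 µM and 0.74 (0.56 to 0.93) at 10 µM. The IFIT proteins bind viral RNA that lacks the cap marks of the host. Ifit3 was at 1.09 and 0.78 FPKM at 0 µM, 2.74 and 2.45 FPKM at 5 µM and 1.90 and 1.99 FPKM at 10 µM, whereas Ifit1 was at 2.28 and 2.30 FPKM, 1.45 and 1.51 FPKM, and 1.09 and 1.13 FPKM at the same doses. At 10 against 0 µM, Ifit3 rose by 0.61 (0.47 to 0.75) and Ifit1 fell by 0.64 (−0.66 to −0.62). Ifit2, at 7.04 and 7.004 FPKM at 0 µM, 4.72 and 4.69 FPKM at 5 µM and 5.32 and 5.40 FPKM at 10 µM, was lower in every lane with SHP099 but not called (−0.34 at 10 µM). Of the 50-base words in its transcripts, Ifit3 shares 51.2% with other genes, mainly Ifit3b, so its value is uncertain.

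Of all 42 members, Ifitm1 and Ifitm3 had the largest decreases at 10 against 0 µM on the log2(FPKM + 1) scale. That scale understates the change of low genes such as Rsad2, at 0.74 FPKM at 0 µM and 0.22 FPKM at 10 µM. All 3 Ifitm genes were lower at each higher dose in the values as deposited. Ifitm1 was at 140.2 and 143.6 FPKM at 0 µM, 79.7 and 84.4 FPKM at 5 µM and 57.9 and 54.6 FPKM at 10 µM. Ifitm3 was at 544 and 575 FPKM, 423 and 415 FPKM, and 270.4 and 264 FPKM at these doses. Ifitm2 was at 680.3 and 639 FPKM, 619 and 602 FPKM, and 489 and 469 FPKM. The lanes of the 3 doses did not overlap for any of the 3 genes. At 10 against 0 µM, Ifitm1 fell by 1.32 (−1.38 to −1.26) and Ifitm3 by 1.06 (−1.12 to −1.005), while Ifitm2 was at −0.46 (−0.54 to −0.39) and not called. At 10 against 5 µM the differences were −0.54 for Ifitm1, −0.65 for Ifitm3, the one called, and −0.35 for Ifitm2. Scaling to the same FPKM sum without Snora62 turned Ifitm2 to 0.07 at 5 against 0 µM, and with Snora62 to 0.06 at 10 against 5 µM, where Ifitm3 (−0.24) was no longer called. Ifitm2 shares 48.5% of its 50-base words with other gene models, mainly Gm45717 and Gm11951. Gm45717 overlaps 40.9% of the exon bases of Ifitm2 on the same strand. Ifitm3 shares 10.0% of its words, mainly with Gm7676 and Gm11951, and Ifitm1 5.02%, mainly with Gm7676 and Ifitm3. Reads may have been split between each gene and the models that share its words.

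**Figure D5:**
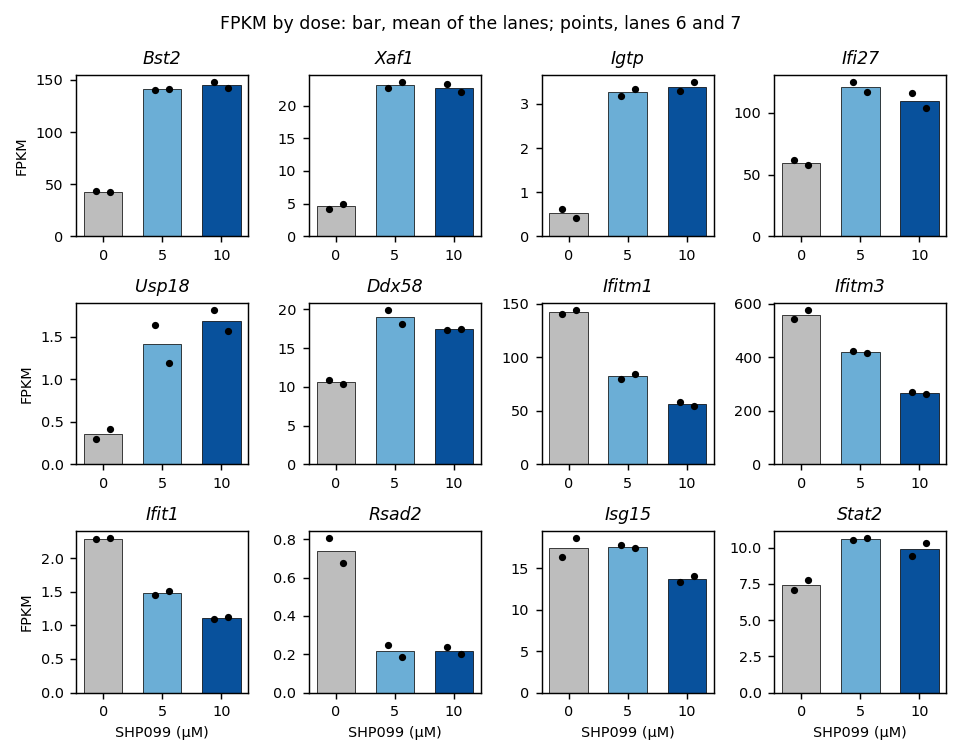
FPKM of 12 members at 0, 5 and 10 µM SHP099 (bars from 0, mean of the lanes; points, lanes 6 and 7). Bst2, Xaf1 and Igtp are at similar levels at 5 and 10 µM, above 0 µM, while Ifitm1 and Ifitm3 step down at each dose.

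Several effectors best known from type I responses were low throughout and not higher with SHP099. Rsad2, the radical enzyme viperin, was at 0.80 and 0.68 FPKM at 0 µM, 0.25 and 0.18 FPKM at 5 µM and 0.24 and 0.20 FPKM at 10 µM, and Mx1, a dynamin-like GTPase that blocks influenza virus, at 0.72 and 0.90, 0.52 and 0.43, and 0.42 and 0.46 FPKM. In both genes every lane with SHP099 lay below both lanes without it, at levels under the 1 FPKM needed for a call. Cmpk2, a nucleotide kinase next to viperin in the genome, averaged 0.54, 0.43 and 0.35 FPKM at 0, 5 and 10 µM, Mx2 0.19, 0.12 and 0.07 FPKM, and Oas2, an enzyme that makes the activator of RNase L, 0.02, 0.03 and 0.03 FPKM. Oasl2, a relative of the OAS enzymes, averaged 3.73, 4.43 and 3.23 FPKM and was not called. The double-stranded RNA kinase gene Eif2ak2 (24.4, 27.1 and 28.0 FPKM) and the RNA editing enzyme gene Adar (20.4, 16.6 and 18.5 FPKM) were abundant and not called either, with log2 folds of 0.19 and −0.13 at 10 against 0 µM. Adar was at 0.08 there with equal FPKM sums, the opposite sign.

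The sensors of viral nucleic acid differed among themselves. Ddx58 encodes RIG-I, which detects RNA with a triphosphate end. Ddx58 was at 10.8 and 10.3 FPKM at 0 µM, 19.9 and 18.1 FPKM at 5 µM and 17.4 FPKM in both lanes at 10 µM, and rose by 0.67 (0.64 to 0.70) at 10 against 0 µM and by 0.78 (0.69 to 0.88) at 5 against 0 µM. Its relatives stayed low, with Ifih1 (MDA5) at 0.31, 0.46 and 0.32 FPKM and Dhx58 (LGP2) at 0.80, 0.89 and 0.86 FPKM at 0, 5 and 10 µM. Trim25, the ubiquitin ligase that activates RIG-I, was at 10.2, 11.04 and 9.78 FPKM and not called, and its log2 fold of −0.05 at 10 against 0 µM was 0.15 with equal FPKM sums. Zbp1, a sensor of Z-form nucleic acid, was at 2.31 and 3.02 FPKM at 0 µM, 4.50 and 4.88 FPKM at 5 µM and 3.49 and 2.79 FPKM at 10 µM. It was called higher at 5 µM (0.64, 0.45 to 0.83) and not at 10 µM (0.18, −0.09 to 0.44), and the call at 5 µM was lost without lane 6 of 0 µM (0.50).

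Of the 3 PARP genes, Parp9, which works with a ubiquitin ligase in the interferon response, was at 4.62 and 4.08 FPKM at 0 µM, 7.27 and 6.78 FPKM at 5 µM and 6.93 and 6.60 FPKM at 10 µM. Its log2 fold was 0.59 (0.47 to 0.70) at 5 µM, just past the rule, and 0.54 (0.43 to 0.64) at 10 µM, just short of it. The call at 5 µM was lost without lane 7 of 0 µM (0.51) or lane 6 of 5 µM (0.54), and Parp9 was called at 10 µM without lane 6 of 0 µM. Parp12 averaged 3.62, 4.67 and 4.35 FPKM and Parp14 0.44, 0.70 and 0.69 FPKM, neither called.

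Among the remaining effectors, Ifi44 was at 0.55 and 0.45 FPKM at 0 µM, 2.03 and 2.12 FPKM at 5 µM and 1.32 and 1.28 FPKM at 10 µM. It rose by 1.03 (0.97 to 1.10) at 5 µM and 0.62 (0.55 to 0.68) at 10 µM, so the level at 10 µM lay between the other doses in every lane. Without lane 7 of 0 µM the calls at 10 µM of Ifi44 (0.57) and Ifit3 (0.49) were lost, and without lane 6 of 0 µM that of Gbp2 (0.58). Ifi35 averaged 14.1, 16.7 and 15.3 FPKM, Rtp4 1.07, 1.41 and 0.88 FPKM and Sp100, a nuclear body protein, 1.85, 2.06 and 1.49 FPKM, none called.

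The GTPases linked to interferon-gamma all had positive log2 folds against 0 µM, at both doses and under the scalings tried. Igtp, an immunity-related GTPase also called Irgm3, was at 0.62 and 0.42 FPKM at 0 µM, 3.19 and 3.35 FPKM at 5 µM and 3.29 and 3.49 FPKM at 10 µM. Its log2 fold was 1.53 (1.404 to 1.66) at 10 against 0 µM and 1.49 (1.37 to 1.61) at 5 against 0 µM. Its exons overlap those of its neighbour Irgm2 on the same strand over 8.01% of their bases, and 11.8% of its 50-base words are shared with Irgm2. Irgm1, a regulator of these GTPases, was at 4.88 and 5.26 FPKM at 0 µM, 7.76 and 7.70 FPKM at 5 µM and 8.31 and 7.75 FPKM at 10 µM. With 0.57 (0.48 to 0.66) at 10 µM it fell just short of the rule, and it was called there under each scaling tried and without lane 7 of 0 µM or of 10 µM.

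The guanylate-binding proteins coat the vacuoles that hold pathogens. Gbp2 was at 4.03 and 4.24 FPKM at 0 µM, 7.37 and 7.03 FPKM at 5 µM and 6.71 and 6.91 FPKM at 10 µM. It rose by 0.61 (0.56 to 0.65) at 10 µM and 0.68 (0.62 to 0.73) at 5 µM. The call at 5 µM was lost with equal FPKM sums that included Snora62 (0.51) and kept with equal sums without Snora62 (0.83). Gbp3 averaged 0.71, 1.31 and 0.99 FPKM and was not called. Gbp7 (0.16, 0.26 and 0.26 FPKM) and the vacuole-binding GTPase gene Iigp1 (0.02, 0.11 and 0.07 FPKM) lay below the level compared. In all, 2 of the 4 GTPases compared, Igtp and Gbp2, were called higher at either dose and none lower, beside 15.7% of all genes higher at 10 µM and 14.1% at 5 µM. Igtp passed the filter only through its levels at 5 and 10 µM.

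None of the 4 regulators was called, although all were positive against 0 µM at both doses and under the scalings tried. Over all genes compared, 15.7% were higher and 19.1% lower at 10 µM, and 14.1% and 16.8% at 5 µM. With only 4 genes, the absence of calls says little. Stat2, the STAT of the type I complex, was at 7.05 and 7.76 FPKM at 0 µM, 10.5 and 10.63 FPKM at 5 µM and 9.45 and 10.3 FPKM at 10 µM. Irf9, its DNA-binding partner, was at 3.94 and 4.33 FPKM at 0 µM, 6.94 and 6.31 FPKM at 5 µM and 5.98 and 6.94 FPKM at 10 µM. In both genes every lane with SHP099 lay above both lanes without it, with log2 folds at 10 against 0 µM of 0.37 (0.25 to 0.49) for Stat2 and 0.54 (0.39 to 0.69) for Irf9. Irf9 was near the rule, and was called at 10 µM with equal FPKM sums (0.73) or without lane 7 of 0 µM or lane 6 of 10 µM, and at 5 µM under a trimmed mean scaling (0.60) or without lane 7 of 0 or of 5 µM. Irf1, a factor induced by interferon-gamma, was at 50.02 and 51.9 FPKM at 0 µM, 63.7 and 64.1 FPKM at 5 µM and 58.0 and 60.0 FPKM at 10 µM. Irf7, which amplifies type I interferon, was at 1.93 and 1.51 FPKM at 0 µM, 2.05 and 3.08 FPKM at 5 µM and 2.28 and 1.91 FPKM at 10 µM, with lanes of 0 and 10 µM that overlapped and a call at 5 µM without lane 6 of that dose.

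The log2 folds of the classes were then set side by side. A range grows with the number of genes, so the ranges over 32, 6 and 4 genes cannot be compared directly. At 10 against 0 µM the log2 folds of the 32 effectors ran from −1.32 to 2.08 with a median of 0.01, and 17 were above 0 and 15 below. Those of the 6 GTPases ran from 0.07 to 1.53 with a median of 0.40, and those of the 4 regulators from 0.19 to 0.54 with a median of 0.29. At 5 against 0 µM the medians were 0.15, 0.48 and 0.42 in the same order of classes. The median over all genes compared was −0.03 in both comparisons. These are descriptions of 3 libraries, and whether the classes differ was not tested.

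Other genes of the pathway were taken from a list of 109, of which 68 were compared, and 15 were higher (22.1%) and 10 lower (14.7%) at 10 against 0 µM, near the 15.7% and 19.1% of all genes compared. None of 11 interferon genes reached 1 FPKM. Ifnb1, Ifna4, Ifna5, Ifnl2, Ifnl3 and Ifng were listed at 0 in every file, and the highest was Ifne, an epithelial type I interferon, at 0, 0.06 and 0.34 FPKM at 0, 5 and 10 µM. Of 9 receptor and JAK genes, 8 were compared. At 10 µM 1 was called higher (12.5%) and none lower, beside 15.7% and 19.1% of all genes. Il10rb, a receptor chain shared by interferon-lambda and interleukin 10, was at 11.6, 20.3 and 21.0 FPKM and rose by 0.81 (0.76 to 0.86). The type I receptor genes Ifnar1 (17.9, 26.3 and 26.7 FPKM) and Ifnar2 (29.8, 43.1 and 41.5 FPKM) were not called, nor were Ifngr1 (17.1, 12.5 and 12.6 FPKM) and Ifngr2 (10.1, 11.5 and 13.6 FPKM) of the interferon-gamma receptor. The kinase genes Jak1 (48.3, 57.5 and 58.7 FPKM), Jak2 (3.82, 5.22 and 5.50 FPKM) and Tyk2 (5.92, 6.08 and 5.83 FPKM) were not called.

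Of 12 other STAT and IRF factors 8 were compared, and none rose and 1 fell at 10 µM (12.5%, beside 19.1% of all genes). It was Irf5, at 2.69, 1.37 and 1.25 FPKM (−0.71, −0.77 to −0.65). Irf5 was no longer called at 10 µM with a pseudocount of 5 FPKM (−0.30) or with equal sums without Snora62 (−0.57). Of 11 sensor adaptors and kinases, all compared, 3 rose (27.3%) and 1 fell (9.09%), beside 15.7% and 19.1% of all genes. Tlr3, the endosomal receptor for double-stranded RNA, was at 2.23, 5.55 and 4.95 FPKM (0.88, 0.80 to 0.96), Trim56, a ubiquitin ligase of the DNA sensing pathway, at 8.48, 15.4 and 15.6 FPKM (0.81, 0.78 to 0.84) and the kinase Ikbke at 4.52, 6.72 and 8.21 FPKM (0.74, 0.65 to 0.82). Mb21d1, which encodes the DNA sensor cGAS, fell to 1.41 FPKM at 10 µM, against 5.44 FPKM at 0 µM (−1.42, −1.47 to −1.37). With a pseudocount of 5 FPKM, Tlr3 (0.46) and Ikbke (0.47) were not called.

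Of 12 negative regulators, all compared, none rose and 3 fell at 10 µM (25%), near the 19.1% lower among all genes. Socs3, an inhibitor of JAK kinases, was at 7.48, 3.42 and 2.19 FPKM (−1.41, −1.56 to −1.26), and the phosphatase genes Ptpn2, which acts on JAK kinases, at 28.0, 16.7 and 15.9 FPKM (−0.78, −0.84 to −0.72) and Ptpn1 at 40.0, 26.4 and 24.2 FPKM (−0.70, −0.80 to −0.60). With equal FPKM sums Ptpn2 (−0.58) and Ptpn1 (−0.49) were no longer called. Ptpn11, the gene of the inhibited phosphatase, was at 59.0, 58.4 and 57.7 FPKM. Of 54 further interferon-inducible genes, 29 were compared, and 11 rose (37.9%) and 5 fell (17.2%) at 10 µM, beside 15.7% and 19.1% of all genes. Irgm2, the GTPase next to Igtp, was at 0.45, 4.85 and 5.014 FPKM (2.05, 2.03 to 2.07), the galectin Lgals9 at 44.0, 152.6 and 145.8 FPKM (1.71, 1.69 to 1.73) and the lysosomal thiol reductase Ifi30 at 59.9, 146.6 and 151.9 FPKM (1.33), while Oasl1 fell to 0.27 FPKM at 10 µM, against 2.09 FPKM at 0 µM (−1.29, −1.36 to −1.21), a call lost with a pseudocount of 5 FPKM (−0.43). Irgm2, and others of the 11 that rose, passed the filter of 1 FPKM only through levels at 5 or 10 µM. Oasl1 passed it only through its level at 0 µM. Such calls, and the shares that count them, are partly set by that filter.

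Markers of other cells that respond to interferon were set beside these values. Of 10 microglia and macrophage markers, 7, among them Ptprc, Csf1r, Itgam and Adgre1, stayed under 0.1 FPKM at every dose, and their sum was 0.085 to 0.099 FPKM in the lanes of 0 µM, 0.133 to 0.199 FPKM at 5 µM and 0.064 to 0.144 FPKM at 10 µM. The other 3 were Tmem119 (63.9, 119.0 and 127.0 FPKM at 0, 5 and 10 µM), Lyz2 (0.09, 2.21 and 2.30 FPKM) and Cd68 (2.03, 1.59 and 1.64 FPKM). Of these 3, Tmem119 and Lyz2 were called higher at both doses, beside 15.7% of all genes compared at 10 µM and 14.1% at 5 µM. Lyz2 passed the filter of 1 FPKM only through its levels at 5 and 10 µM, so its calls are partly set by that filter. Over all 10 the sum was 65.4 to 66.8 FPKM in the lanes at 0 µM, 121.1 to 124.9 FPKM at 5 µM and 127.8 to 134.2 FPKM at 10 µM. All 6 markers of T and NK cells, all 3 of plasmacytoid dendritic cells and all 4 of endothelium stayed below 1 FPKM at every dose, with sums of at most 0.022, 0.033 and 0.260 FPKM in any file. Whether the rise of Tmem119 and Lyz2 has a part in the values of the members was not tested.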

How the data were processed

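Each of the 6 deposited files holds 1 FPKM value per gene for 1 lane of 1 library, as computed by the authors. Per the submitters' processing notes, Bowtie 0.12.2 and mm8 were used; which program computed FPKM, and whether it rescaled files, is not given in the sources used here. FPKM were used as deposited, and entries of a symbol were summed. Lanes were averaged on log2(FPKM + 1) and treated as repeat runs. Fragments per file were fitted from genes of 1 annotated transcript, 240 bases subtracted, so that 97.6% to 98.4% of 1270 to 1404 genes under 10 fragments came out whole within 0.1; errors cover counting only. The members, classes and lists were chosen with earlier results of these data known. All members are named, with fixed pathway genes and up to 4 called genes per pathway role of largest change at 10 µM. Word sharing and exon overlap come from GENCODE M21. As an alternative, lane files were fitted with limma 3.58.1 (R 4.3.3), which measures lane noise only. Python 3.11.15, numpy 2.4.6, pandas 2.3.3 and matplotlib 3.10.9 were used. One gene of the pathway list is not reported here.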

Additional observations from a re-analysis of the deposited data

How the results depend on the processing

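With 1 library per dose, variation between cultures is unknown, and the lowest members, such as Oas2 and Iigp1, rest on few fragments. The direction of every call among members and named pathway genes was the same under each alternative run; the cause of changed calls was not tested beyond what a setting itself does. With a pseudocount of 0.1 FPKM, 2 members were lower at 5 against 0 µM and 2 at 10 against 5 µM. With 5 FPKM, 5 members were higher at 10 against 0 µM and 5 at 5 against 0 µM, with Ifi44, Ifit3, Usp18 and Gbp2 among those lost in both, Ddx58 at 10 µM and Igtp at 5 µM. A filter of 5 FPKM left 6 and 7 higher. A 2-fold rule left 3 and 5 higher, and 0 lower at 5 against 0 µM and at 10 against 5 µM. Shares over all genes are not given for the other pseudocounts, filters and fold rule, or with a lane left out. These member counts therefore cannot be set against a background. With equal FPKM sums that included Snora62, 3 were lower at 5 against 0 µM and 0 at 10 against 5 µM. With equal sums without Snora62, 1 was lower in each of these comparisons, the same count as deposited. Leaving out 1 lane gave 10 to 11 higher and 3 lower at 10 against 0 µM, 11 to 13 higher and 1 lower at 5 against 0 µM, and 0 higher and 1 to 2 lower at 10 against 5 µM, the second being Zbp1 without lane 6 of 10 µM or Rtp4 without lane 7. limma over lanes, with and without the lane as a replicate block, gave 10 higher and 3 lower at 10 against 0 µM and 12 and 1 at 5 against 0 µM at an adjusted p of 0.05 and 1.5-fold. Over all genes compared, limma without that block gave 1949 higher and 2374 lower at 10 against 0 µM. At 5 against 0 µM it gave 1746 and 2089. Whether lanes of the same number share more than that number across doses was not known.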
